A study of Mus musculus with 6 samples.

Results

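The regions described here are the H3S10p peaks of mouse chromosome 19, taken as every peak listed on that chromosome in the deposited peak lists of 2 ChIP-seq libraries. There were 735 of them among 23328 peaks in all: 360 of 11067 in library 1 and 375 of 12261 in library 2. Both libraries came from embryonic stem cells of strain 129P2/Ola held for 20 hours in aphidicolin, which blocks replicative DNA polymerases, and released for 3 hours. Chromatin cut to single nucleosomes was precipitated with the antibody ab14955, and no other ChIP condition, genotype or treatment was analysed here. The labels do not say whether the libraries came from separate cultures, so the spread between them may be technical. The series also holds 4 RNA libraries, which were not used here, so stem cell markers were not analysed.

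H3S10p is histone H3 carrying a phosphate on serine 10. Aurora B, the kinase of the chromosomal passenger complex, places it on chromatin as cells approach mitosis, first around the centromeres, where it weakens the hold of HP1 on H3 methylated at lysine 9. Other kinases place the same phosphate at induced genes in interphase. Mouse chromosome 19 is the shortest mouse autosome, and like the other mouse chromosomes it carries its centromere at the start, ahead of the assembled sequence.

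Chromosome 19 and its first 10 Mb of assembled sequence were selected on their peak density in these same libraries. Density by position, and everything measured between these same regions, is therefore given as a description with no test. Positions are on mm9, counted from 1, and a peak was placed by its midpoint. The first 10 Mb ran from 3 to 13 Mb and the rest from 13 Mb to the last called base, 61333952, a span of 48.3 Mb. No peak lay before 3 Mb. Intervals cover counting error only, at 95%, exact Poisson for densities and Wilson for shares. Neighbouring peaks are not independent, and peaks of 1 library are not replicates. No input library was analysed here, so whether peak number moves with mappability, copy number or base composition was not tested.

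In library 1, 152 peaks lay in the first 10 Mb and 208 in the rest. In library 2 the numbers were 164 and 211. The start thus held 42.2% and 43.7% of the chromosome's peaks on 17.1% of its length. At the start, library 1 had 15.2 peaks per Mb (12.9 to 17.8) and library 2 had 16.4 (13.99 to 19.1). In the rest it was 4.30 (3.74 to 4.93) and 4.37 (3.80 to 4.996). The ratio of start to rest was 3.53 in library 1 and 3.76 in library 2, or 3.64 ± 0.16 (SD, n = 2 libraries). Bases covered by peaks followed the counts: 5.85 and 6.10 bp per kb were covered at the start, against 1.62 and 1.50 bp per kb in the rest.

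The windows show that the crowding was not even over these 10 Mb. In the 1 Mb window starting at 3 Mb there were 17 peaks in library 1 and 18 peaks in library 2. The window at 4 Mb held 30 and 32, the most of any window of the chromosome in library 1 and, jointly with its neighbour, in library 2. That neighbour at 5 Mb held 25 and 32, followed by 24 and 26 at 6 Mb and 20 and 19 at 7 Mb. Together these 5 windows contained 116 and 127 peaks, a density of 23.2 per Mb in library 1 (19.2 to 27.8) and 25.4 in library 2 (21.2 to 30.2). They carried 32.2% and 33.9% of all peaks of the chromosome. After 8 Mb the numbers fell to 9 and 10, then 6 and 6, before a smaller crowd of 13 and 17 peaks at 10 Mb.

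The dense stretch ended inside the first 10 Mb, not at its border. The windows at 11 and 12 Mb held 3 and 5 peaks in library 1 and 2 in each in library 2. The window at 13 Mb was empty in both libraries. In library 1 the last peak inside the border spanned 12870163 to 12870530 (score 56.5). In library 2 it spanned 12870552 to 12870761 (score 136). They lay 21 bp apart and so did not count as overlapping. Outside the border, library 1 resumed at 14472910 to 14473105 (score 80.9) and library 2 at 14895446 to 14895707 (score 56.0). Between them was a stretch of 1.60 Mb, from 12870762 to 14472909, with no peak in either library. Leaving out the windows from 3 to 8 Mb, an alternative added once the windows were known, gave a ratio of start to rest of 1.68. With the first 20 Mb as the start it was 1.71.

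**Figure D1:**
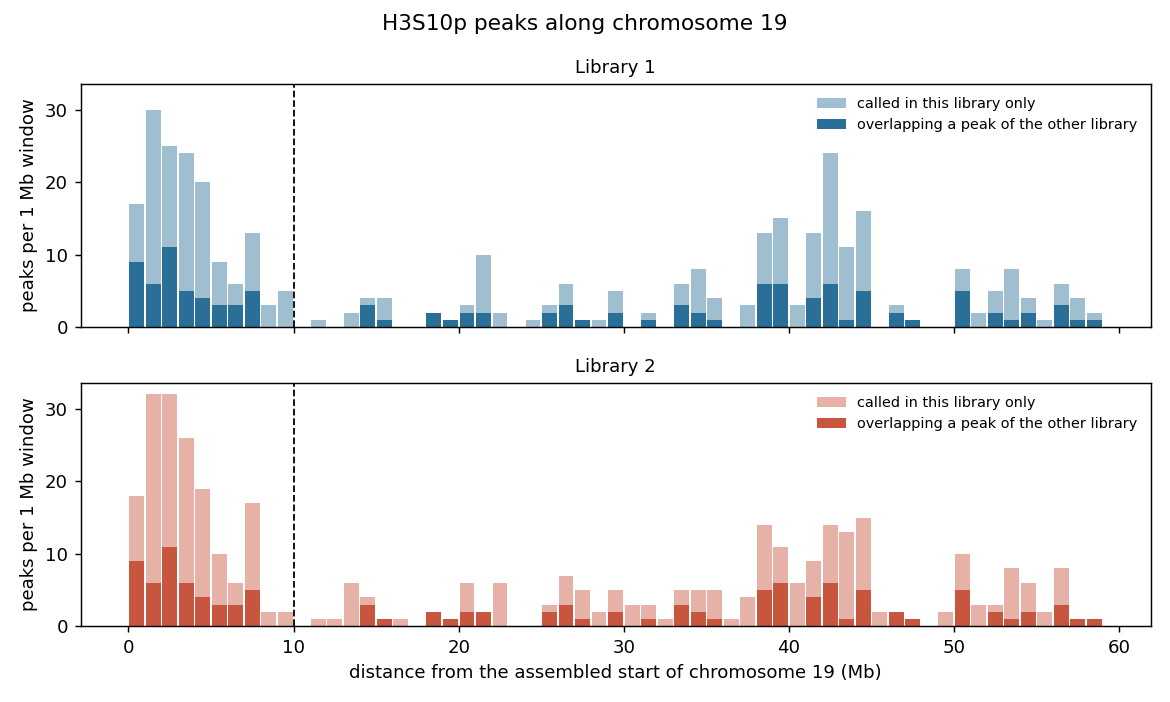
Number of H3S10p peaks per 1 Mb window (y axis) against distance from the assembled start of chromosome 19 in Mb (x axis), with library 1 above and library 2 below; dark bars are peaks that overlap a peak of the other library, pale bars the remainder, and the dashed line marks the end of the first 10 Mb. Both libraries reach their highest windows, 30 and 32 peaks, within the first 3 Mb and have a lower second crowd beyond 38 Mb.

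The rest of the chromosome was uneven too, with a second crowd of peaks from 41 to 48 Mb. The borders of these stretches were set after the windows were seen. From 41 to 48 Mb there were 95 peaks in library 1, or 13.6 per Mb (10.98 to 16.6), and 82 in library 2, or 11.7 per Mb (9.32 to 14.5). Its highest window was at 45 Mb, with 24 peaks in library 1 but 14 in library 2, the widest gap between the libraries in any window, at 10 peaks. The window at 24 Mb also differed, with 10 peaks in library 1 and 2 in library 2. Between the crowds, from 13 to 41 Mb, library 1 had a density of 2.46 peaks per Mb and library 2 one of 2.86. From 48 Mb to the end it was 3.30 and 3.67. In 100 kb bins, both libraries had a peak in 33 of 50 bins from 3 to 8 Mb (66.0%) and in 37 of 70 bins from 41 to 48 Mb (52.9%). From 13 to 41 Mb this was so for 32 of 280 bins (11.4%), and 190 bins there had no peak in either library.

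Along the whole chromosome, 4 of 59 windows held no peak in either library, those starting at 13, 20, 26 and 51 Mb. The longest stretch free of peaks in both libraries was 2.36 Mb, from 19185815 to 21546697. Peaks were concentrated in few windows: 9 windows held at least 50% of the peaks in library 1 and 10 did so in library 2, and 6 of them in library 2 lay at the start. In library 1 it was 5 or 6, since the windows at 10, 41 and 44 Mb tie for the last place with 13 peaks each. Window counts followed each other between the libraries, with Spearman's rho of 0.84 over 59 windows and 0.79 over the 49 windows from 13 Mb on. The windows share the genome and its mappability, so these correlations describe the lists and carry no test.

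The first 10 Mb of chromosome 19 were the densest start among the 19 autosomes and X, although not the densest 10 Mb of the genome. On the other 19 chromosomes, the first 10 Mb ranged from 0.3 to 8.1 peaks per Mb in library 1 (median 2.6) and from 0.8 to 7.5 in library 2 (median 3.2). The highest of these was chromosome 11, with 8.1 and 7.5. The ratio of start to rest was above 1 in both libraries on chromosomes 16 (1.71 and 1.50) and X (2.37 and 1.79) besides 19, while chromosomes 18 (0.96 and 1.04) and 11 (1.02 and 0.85) lay above 1 in a single library. In its remaining length chromosome 19 had 4.30 and 4.37 peaks per Mb, ranks 11 and 12 of 20, beside medians of 4.42 and 4.999 for the others. These ranks compare unlike parts. Chromosome 19 is there without its densest 10 Mb window, while others kept dense windows, such as chromosome 17 from 23000001 to 33000000. With its start included, chromosome 19 had 6.17 and 6.43 peaks per Mb, ranks 2 and 3.

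**Figure D2:**
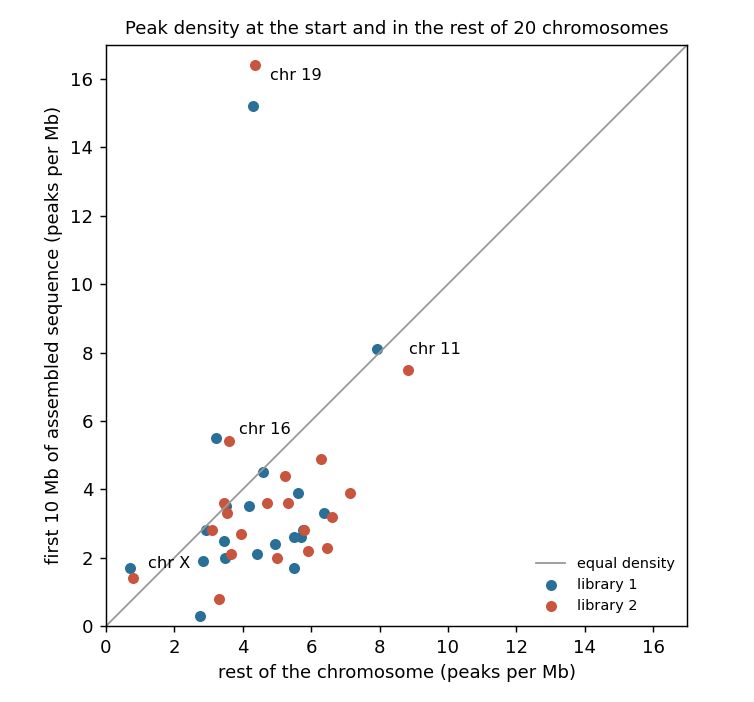
Peaks per Mb in the first 10 Mb of assembled sequence (y axis) against peaks per Mb in the rest of the same chromosome (x axis), for 19 autosomes and X, with 1 point per chromosome and library and a line of equal density. The points of chromosome 19 lie at 15.2 and 16.4 on the y axis, above the 8.1 and 7.5 of chromosome 11.

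Among 246 windows of 10 Mb laid from 3 Mb along all 20 chromosomes, the start of chromosome 19 ranked 8 by the mean of the libraries, at 15.8 peaks per Mb beside a median of 3.15. The 3 densest lay inside chromosomes. They were chromosome 17 from 23000001 to 33000000 (189 and 224 peaks in the libraries), chromosome 11 from 93000001 to 103000000 (190 and 211 peaks) and chromosome 2 from 23000001 to 33000000 (174 and 204 peaks). In these 3 windows, 32.8%, 37.4% and 36.2% of library 1 peaks overlapped a library 2 peak, and 40.7%, 44.7% and 36.2% had a neighbour within 10 kb. For the start of chromosome 19 these library 1 shares were 30.3% and 38.8%. In library 2 the 3 windows had overlapping shares of 27.7%, 34.6% and 30.9% and clustered shares of 49.6%, 38.9% and 32.8%, beside 28.7% and 42.7% at the start of chromosome 19. The start thus held no fixed place among these windows in clustering or recurrence.

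Recurrence, the share of peaks that touch a call in the other library with 1 bp or more, was a few points lower at the start than in the rest, with Wilson intervals that overlap. Over the whole lists 35.1% of library 1 peaks and 31.7% of library 2 peaks overlapped. On chromosome 19 it was 118 of 360 in library 1 (32.8%, 28.1 to 37.8%) and 118 of 375 in library 2 (31.5%, 27.0 to 36.3%). At the start, 46 of 152 peaks of library 1 recurred (30.3%, 23.5 to 37.98%) and 47 of 164 of library 2 (28.7%, 22.3 to 36.0%). In the rest, 72 of 208 did so in library 1 (34.6%, 28.5 to 41.3%) and 71 of 211 in library 2 (33.6%, 27.6 to 40.3%). The difference of start minus rest was -4.35 percentage points in library 1 and -4.99 in library 2. The sign turned in the upper 50% of each list by score, to 1.26 points on average, and with overlap of at least 50% of both peaks it was -0.74. The upper 50% left few recurring peaks: 13 of 69 at the start in library 1 and 13 of 87 in library 2. In the rest it left 16 of 95 and 16 of 111.

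Recurring peaks and single-library peaks were both denser at the start. Peaks found in both libraries stood at 4.60 per Mb in library 1 (3.37 to 6.14) and 4.70 in library 2 (3.45 to 6.25), against 1.49 and 1.47 in the rest, a ratio of 3.09 and 3.20. Peaks called in a single library stood at 10.6 and 11.7 per Mb against 2.81 and 2.90, a ratio of 3.77 and 4.04. Single windows differed: at 3 Mb, 9 of 17 library 1 peaks and 9 of 18 library 2 peaks recurred. At 4 Mb, the densest window by the mean of the libraries, 6 of 30 and 6 of 32 did. At 5 Mb, 11 of 25 and 11 of 32 recurred, and at 11 and 12 Mb together 0 of 8 and 0 of 4 did (upper Wilson bounds 32.4% and 49.0%).

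Many single-library peaks of the start nevertheless had a peak of the other library close by. In library 1, 43 of 106 of them at the start (40.6%, 31.7 to 50.1%) lay within 10 kb of a library 2 peak, against 29 of 136 in the rest (21.3%, 15.3 to 28.9%). In library 2 the numbers were 50 of 117 (42.7%, 34.1 to 51.8%) and 32 of 140 (22.9%, 16.7 to 30.5%). The median distance from such a peak to the nearest peak of the other library was 13.9 and 12.8 kb at the start, and 36.5 and 37.1 kb in the rest. Over the single-library peaks of all chromosomes, 29.0% and 26.8% had a peak of the other library within 10 kb. Close misses were few: 9 of 106 single-library peaks of library 1 and 8 of 117 of library 2 at the start lay within 1 kb of the other library's nearest peak. In the rest 8 of 136 and 9 of 140 did. A shorter distance goes along with a higher density, and the part of density in it was not tested.

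Clustering, a neighbour of the same library within 10 kb, was more common at the start than in the rest in both libraries. At the start 59 of 152 peaks of library 1 were clustered (38.8%, 31.4 to 46.7%) and 70 of 164 of library 2 (42.7%, 35.4 to 50.3%), beside 21.9% and 24.5% over the whole lists. In the rest it was 33 of 208 in library 1 (15.9%, 11.5 to 21.4%) and 42 of 211 in library 2 (19.9%, 15.1 to 25.8%). The difference was 22.95 percentage points in library 1 and 22.8 in library 2. It was 10.8 points with a gap of at most 5 kb, 38.3 with 50 kb, and 2.35 in the upper 50% of each list by score. In that upper part, 6 of 69 start peaks of library 1 and 13 of 87 of library 2 were clustered, against 6 of 95 and 14 of 111 in the rest. Across 20 chromosomes, this difference ranked 2 in library 1 and 1 in library 2, beside medians of -10.4 and -11.6 points for the others. Chromosome 9 came close, with 20.9 and 21.7 points on 26 and 22 start peaks. Its start was sparser than its rest, with ratios of 0.456 and 0.371. On X, with 17 and 14 start peaks, the difference was 23.96 points in library 1 and -11.7 in library 2. The part of density in the clustering was not tested.

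**Figure D3:**
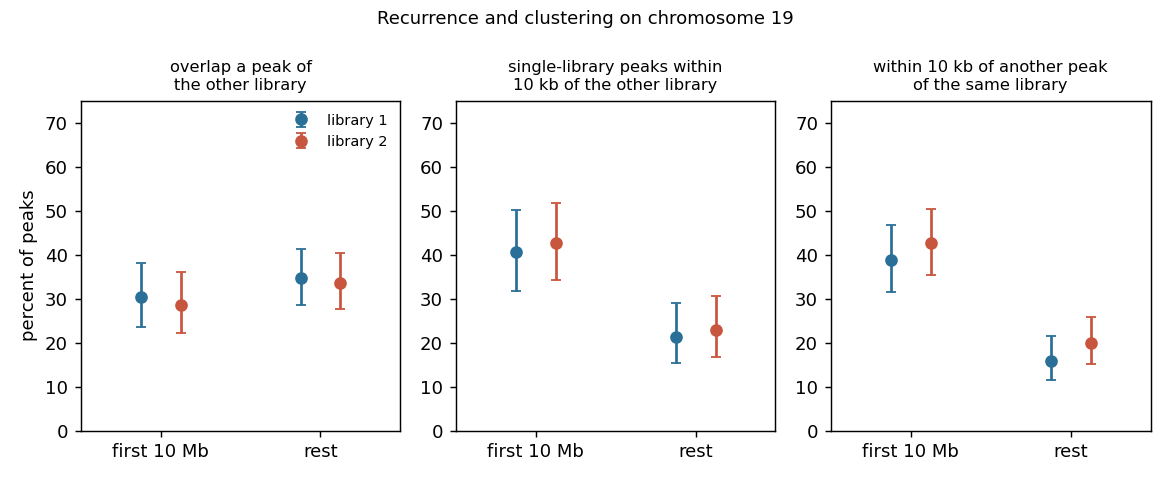
Percent of chromosome 19 peaks (y axis) that overlap a peak of the other library, percent of single-library peaks that lie within 10 kb of a peak of the other library, and percent of peaks within 10 kb of another peak of their own library, for the first 10 Mb and the rest; points are libraries and bars 95% Wilson intervals. The clustered shares of 38.8% and 42.7% at the start stand above 15.9% and 19.9% in the rest, while the intervals of the overlapping shares cover each other.

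Among windows in the same range of peak number, the clustered share was a few points higher at the start than on other chromosomes. The intervals overlap. In 1 Mb windows holding 17 to 32 peaks, a range set after the windows were seen, 51 of 116 start peaks of library 1 were clustered (43.97%, 35.3 to 53.0%) against 994 of 2569 on other chromosomes (38.7%, 36.8 to 40.6%). In library 2 it was 66 of 144 (45.8%, 37.9 to 53.97%) against 1240 of 3109 (39.9%, 38.2 to 41.6%). These were 5 start windows against 119 others in library 1, and 6 against 142 in library 2. The start windows held more peaks each on average, so peak number was not matched within the range. Recurrence in the same windows was 30.2% at the start and 33.4% elsewhere in library 1, and 28.5% and 30.4% in library 2.

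The clusters themselves were small. The start held 25 clusters in library 1 and 28 in library 2, of which 17 and 19 were pairs of peaks. The rest held 13 and 18 clusters. Clusters of 3 or more peaks took in 25 start peaks of library 1 (16.4%) and 32 of library 2 (19.5%), beside 6.86% and 7.4% over the whole lists. In the rest they took in 19 peaks (9.13%) and 14 (6.64%). Of the start clusters, 14 of 25 in library 1 and 19 of 28 in library 2 contained a peak of the other library. In the rest 9 of 13 and 9 of 18 did, a larger share than at the start in library 1 and a smaller one in library 2. These cluster counts are too small to read as a difference, and the share over all chromosomes is not given here.

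In library 1 the largest clusters were groups of 4 peaks from 7214923 to 7239919, of which 0 overlapped a library 2 peak, and from 24205355 to 24226773, where library 2 had no peak. The next, chosen among those of 3 peaks by its earlier start, ran from 4090615 to 4100390 and had no library 2 peak inside. In library 2 the largest held 5 peaks from 45103305 to 45121188, with 1 of them recurring and 3 library 1 peaks inside. Groups of 4 followed from 3902311 to 3912752 and from 5716141 to 5729780, each with 2 recurring peaks. No peak of the 3 library 1 clusters recurred.

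Peaks at the start were about as wide as the others. The median width was 339.5 bp at the start and 334.5 bp in the rest in library 1, and 301 and 276 bp in library 2. The middle 50% of start peaks ran from 227.5 to 517 bp in library 1 and from 208.75 to 468 bp in library 2. The difference of 15.0 ± 14.1 bp (SD, n = 2 libraries) was close to the spread between the libraries. Among the upper 50% of each list by score it was larger, at 102.5 bp, with medians of 385 against 246 bp in library 1 and 291 against 225 bp in library 2. In library 1 the widest peak of the start had 1077 bp and the widest of the rest 1304 bp. In library 2 they had 1141 and 1000 bp.

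The listed scores had similar medians at the start and in the rest. Their median was 64.61 at the start and 64.615 in the rest of the chromosome in library 1, and 67.8 and 68.2 in library 2. No file names the unit of the scores, and the lowest listed anywhere was 50.01. Scores over 100 were rare: 4 start peaks (2.63%) and 7 others (3.37%) in library 1, and 12 start peaks (7.32%) and 9 others (4.27%) in library 2. The libraries thus differed in direction, and these counts are too small to read as a difference between start and rest. The share of such scores over all chromosomes is not given here. Wider peaks tended to score lower, with Spearman's rho of -0.16 over the 360 peaks of library 1 and -0.18 over the 375 of library 2, which are not independent points. At the start rho was -0.05 in library 1 and -0.14 in library 2, and in the rest -0.24 and -0.22.

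The widest peaks recurred in a larger share than the narrowest, at the start and in the rest. Overlap counted from 1 bp on, a rule that wider peaks meet more readily. The part of this rule in the shares was not tested. Peaks were put into 4 classes of 25% each by the widths of the whole lists. In library 1, 5 of 31 start peaks in the narrowest class recurred (16.1%) and 18 of 43 in the widest (41.9%, 28.4 to 56.7%). In the rest these were 9 of 51 (17.6%) and 24 of 48 (36.4 to 63.6%). In library 2 the narrowest class had 7 of 39 at the start (17.9%, 8.98 to 32.7%) and 15 of 65 in the rest (23.1%, 14.5 to 34.6%). Its widest class had 14 of 43 at the start (32.6%, 20.5 to 47.5%) and 21 of 49 in the rest (42.9%, 30.0 to 56.7%), while the class below it had 43.2% and 42.6%. At the start of library 2 the intervals of the narrowest and widest classes overlap. Over all chromosomes, 55.9% (54.0 to 57.7%) of the widest class recurred in library 1 and 50.8% (49.0 to 52.6%) in library 2. In that class, the peaks of chromosome 19 recurred at 42 of 91 in library 1 (46.2%, 36.3 to 56.3%) and 35 of 92 in library 2 (38.0%, 28.8 to 48.3%). In the narrowest class chromosome 19 was not below the whole lists, and the intervals overlap in both libraries. Chromosome 19 peaks there recurred at 17.1% (10.5 to 26.6%) and 21.2% (14.4 to 30.0%). Over all chromosomes it was 16.2% (14.8 to 17.6%) and 13.6% (12.5 to 14.9%).

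**Figure D4:**
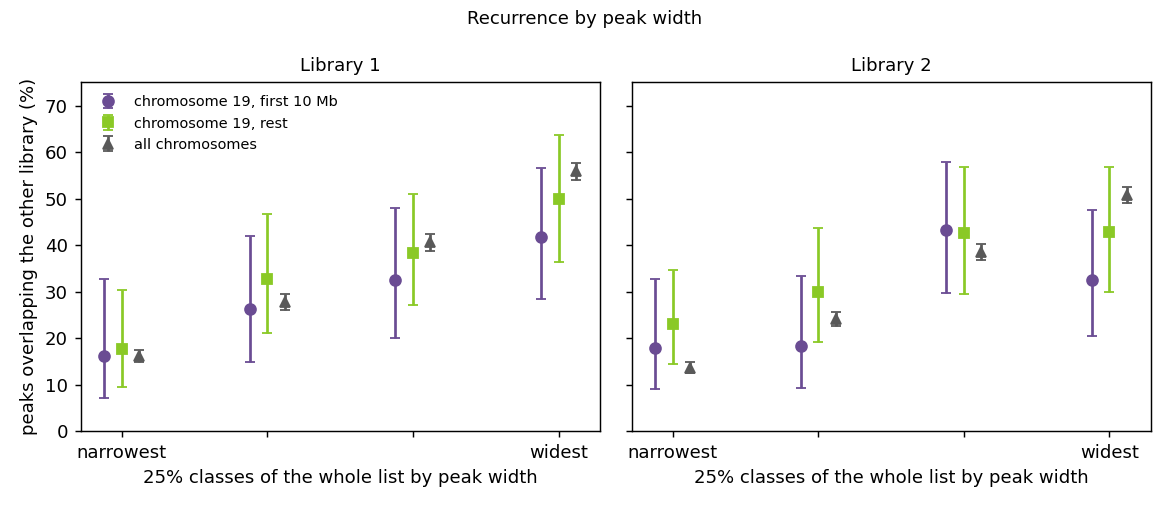
Percent of peaks overlapping a peak of the other library (y axis) in 25% classes of the whole list by peak width (x axis), for the first 10 Mb of chromosome 19, its rest and all chromosomes, with library 1 on the left and library 2 on the right; bars are 95% Wilson intervals. In library 1 the start rises from 16.1% to 41.9%; in library 2 its widest class, at 32.6%, is below the next, at 43.2%.

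Recurring pairs joined each recurring library 1 peak to the library 2 peak it overlapped most. A recurring library 2 peak can thus enter several pairs or none. Of all 118 recurring pairs, 46 (39.0%) lay at the start, and of the 5 with the highest mean score 1 did. The mean is over 2 lists whose score unit is not named, so it serves only to choose these peaks. The highest was near the far end of the chromosome, with borders of 61275511 and 61275822 in library 1 (score 141.5) and of 61275510 and 61275727 in library 2 (score 147.4). The second, at 9973776 to 9973996 and 9973787 to 9973994, was listed with scores of 64.6 and 141.7, and its borders differed by 6.5 bp on average. The others were at 47357428 to 47357691 in library 1 (scores 102.2 and 93.7), at 34548707 to 34548896 (110.4 and 82.3) and at 44619976 to 44620514 (88.6 and 96.2).

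Of the 5 recurring peaks with the largest mean width, 4 lay between 5 and 7 Mb, a number too small to read against the 39.0% of all recurring pairs at the start. The widest spanned 5490372 to 5491448 in library 1 (1077 bp) and 5490569 to 5491430 in library 2 (862 bp). The next, outside the start, spanned 32560077 to 32560940 and 32560138 to 32561075. The remaining 3 were at 6428244 to 6428860, at 6070514 to 6071434 and at 5637145 to 5637972 in library 1. In the first of these the library 2 peak was wider, at 1141 against 617 bp. In the last the borders differed by 5.0 bp on average, while the scores were 58.9 and 114.6. Genes and repeats under these peaks were not analysed here.

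Where peaks recurred, the median distance between their borders was somewhat smaller at the start than in the rest, with widely overlapping ranges. The difference was not tested. Over 46 pairs at the start, starts and ends differed by a median of 71.75 bp (average of both borders), against 89.25 bp over 72 pairs in the rest. The bases common to a pair made up a median of 71.4% of the bases covered by either peak at the start and 59.3% in the rest. Of these pairs, 38 at the start (82.6%) and 52 in the rest (72.2%) overlapped by at least 50% of both peaks. Across the 118 pairs, Spearman's rho between the libraries was 0.36 for width and 0.06 for score, given as descriptions over neighbouring peaks.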

How the data were processed

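H3S10p ChIP-seq was measured in 2 libraries. Peaks were called with MACS in each library separately, per the file headers. Bowtie and mm9 come from the submitters' processing notes. For the MACS version, threshold and control: not given in the sources used here. The authors deposited a score per peak as the caller wrote it, in a unit that is not named. It ranked and filtered peaks within a list, was set side by side between lists as a listed value or by rank, and was averaged over both lists only to choose which recurring peaks to name. Read depth is unknown, so it limits every count to an unknown extent. The table of RNA changes was not used.

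Overlap needed 1 bp. Peaks with gaps of at most 10 kb formed clusters. Named peaks were the 5 recurring ones with the highest mean score, the 5 widest, the 3 largest clusters per library (ties by earlier start), the peaks next to 13 Mb, and the 3 densest 10 Mb windows elsewhere. Members, regions and lists were chosen with earlier results of these data known. No test was run. Alternatives changed the start region, overlap, cluster gap, windows and score filter. On 20 simulated pairs of lists for chromosome 19, with 360 peaks in the first, planted shares of 30.0% overlapping and 27.8% clustered were recovered exactly. The simulated peaks had a single width and lay on or near a regular grid, unlike the listed peaks. This checks the counting code only and bears on no share measured here. Python 3.11.15, NumPy 2.4.6, pandas 2.3.3, SciPy 1.17.1 and matplotlib 3.10.9 were used.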

Additional observations from a re-analysis of the deposited data

How the results depend on the processing

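Differences are the start minus the rest of chromosome 19, averaged over the libraries. With the first 5 Mb as the start, the density ratio was 5.27 (3.64 with 10 Mb), the clustered share differed by 29.1 percentage points (22.9) and the median score by -1.17 (-0.185). With the first 20 Mb the ratio was 1.71, the clustered difference 18.8 and the recurrence difference -2.37 points (-4.67). In the upper 50% of each list by score, the recurrence difference turned to 1.26 points, the clustered difference fell to 2.35, the width difference was 102.5 bp (15.0) and the score difference -1.45; the lists hold fewer peaks there, and otherwise the cause was not tested. Overlap of at least 50% of both peaks gave a recurrence difference of -0.74. Cluster gaps of 5 and 50 kb gave 10.8 and 38.3 points. The rank correlation of windows between libraries (0.84) was 0.78 in 0.5 Mb windows, 0.90 in 2 Mb windows, 0.79 from 13 Mb on, 0.76 in the upper 50% by score and 0.73 for single-library peaks. Without the windows from 3 to 8 Mb, added after seeing the data, the density ratio was 1.68. Leaving out either library gave ratios of 3.53 to 3.76, width differences of 5.0 to 25.0 bp, score differences of -0.365 to -0.005 and clustered differences of 22.8 to 22.95 points. Recurrence and the correlation need both libraries, so neither was recomputed without one. No paired analysis was possible because the ChIP libraries form a single group. Read depth is unknown, so how many peaks it hides cannot be given.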

Other observations

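Score values were repeated within the lists of chromosome 19. The 360 peaks of library 1 carried 229 distinct scores, and the score 74.38 was listed 16 times, 7 of them in the first 10 Mb. The 375 peaks of library 2 carried 238 distinct scores, with 80.74 listed 11 times, 4 of them in the first 10 Mb. The repeats were thus present in both regions. How the peak caller came to equal scores was not tested.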
